A study of Mus musculus with 8 samples.

Results

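Rab GTPases are small proteins of the Ras superfamily, each of which marks certain membranes of the cell and directs the vesicles that leave or reach them. The genes described here are those whose symbols belong to the Rab family itself, to the TBC domain family of GTPase-activating proteins (Tbc1d) or to a few related families of regulators and effectors (Rabgap, Rab3gap, Rabep, Rab11fip, Rabggt, Rin, Gdi and Rabac1, with Usp6nl). The rule found 69 of the 8789 genes named on the arrays, measured by 103 probes. It took 38 Rab GTPases, 30 regulators and effectors, and Rab5if, a factor named for its interaction with Rab5 to which no role in the GTPase cycle was assigned. In mouse RefSeq 113 protein-coding genes carry such symbols, and those without a named probe were not analysed here. Of the 69 genes, 64 had a value in all 4 mice and were tested. Rab3b, Rab3c, Rab24, Tbc1d10b and Tbc1d22b had values in fewer mice, and no named probe belonged to Usp6nl or Rab5a.

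The 4 Eps8KO mice were 17-week-old males on a C57BL/6 background, homozygous for the loss of Eps8 and bred from heterozygous crosses, and their liver RNA was set against 1 pool of liver RNA from WT males of the same age. Each mouse was hybridised to 2 two-colour cDNA arrays, with its RNA in Cy5 on the first and in Cy3 on the other, which gave 8 arrays. The labels do not settle whether the pool held 4, 5 or 6 WT mice. The pool is 1 control sample, so every test below leaves out the spread between WT mice. The targeted gene could not be checked because no named probe belonged to Eps8, and the authors state that liver does not express it. Every value below is a log2 ratio of Eps8KO over the WT pool, so that a negative value means less RNA in Eps8KO liver. A ratio gives no level, so neither the liver identity of the samples nor the abundance of a gene could be read from these values. Features were tested against 0 with limma over all 15455 features measured in 4 mice, and p-values were adjusted with the Benjamini-Hochberg method. Gene names rest on a shift of 32 between the row numbers of the values and the probe numbers of the platform, which had been found from the values.

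A Rab GTPase works as a switch. Exchange factors load it with GTP at its membrane, where it recruits effectors such as tethers and motor adaptors, and GTPase-activating proteins, most of them with a TBC domain, return it to the GDP form. A GDP dissociation inhibitor (Gdi) then extracts the prenylated protein for another round, and Rab geranylgeranyl transferase (Rabggt) adds the lipid that makes the cycle possible. Eps8 is best known as a regulator of actin and of Rac, and it also binds the product of Usp6nl (RN-tre), a GTPase-activating protein that acts on Rab5 in early endosomes. In hepatocytes the Rab proteins serve the uptake and recycling of receptors, the secretion of plasma proteins, transport to the bile canaliculus and the turnover of lipid droplets.

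Among members measured in all 4 mice, 1 lay far from the others. Rabgap1l, which encodes a TBC domain GTPase-activating protein, was 9.46-fold lower in Eps8KO liver, while most of the family lay close to the WT pool. Of the 64 tested members, 41 (64.1%) had a mean log2 ratio within 0.25 of 0, 33 lay above 0 and 31 below. Over all 15455 features 8160 lay above 0 and 7294 below, and the share within 0.25 of 0 was not counted for them. At an unadjusted p under 0.05, 4 members (6.25%) were lower, where 3.09% of all features were called in that direction: Rabgap1l, Rab20, Tbc1d25 and Rab39b. No member was higher at that threshold, where 2.15% of all features were. At an adjusted p under 0.05 no member was called, and neither was any other feature (0%), the smallest adjusted p being 0.119. With 1.6-fold added to the unadjusted threshold, 3 members (4.69%) remained lower, Rab39b being lost, against 1.57% of all features, and 0 were higher, against 1.06%. In bulk liver, fewer cells of a type and less RNA per cell cannot be told apart.

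**Figure D1:**
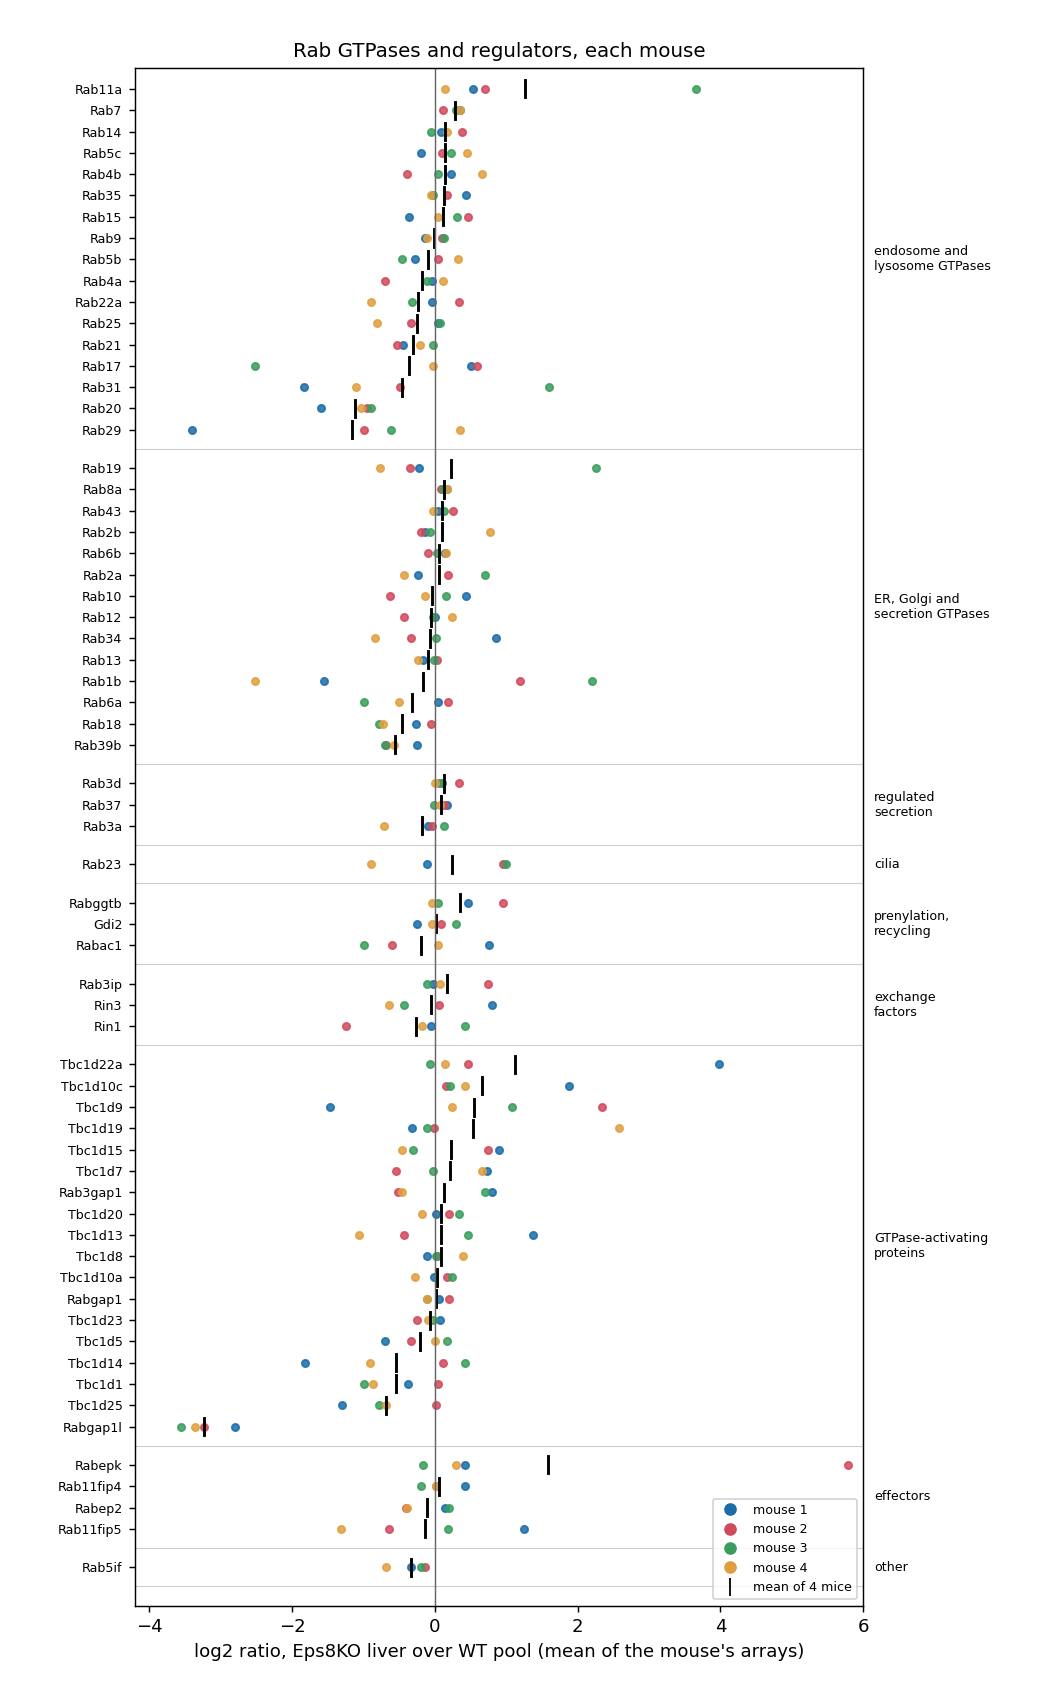
Log2 ratio of Eps8KO liver over the WT pool (horizontal axis) for the 64 members measured in all 4 mice, grouped by role. Each point is a mouse (mean of its arrays) and each black bar is the mean of 4 mice. Rabgap1l stands alone at -3.24 with its 4 mice close together, whereas Rabepk, Rab11a, Tbc1d22a and Rab29 owe their outlying means to 1 mouse each.

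The median log2 ratio of the members was 0.01, beside 0.02 for all features tested, and leaving Rabgap1l out gave 0.02. The medians in single mice were -0.0048, 0.04, 0.01 and -0.11 (SD 0.063, mice 1 to 4). The 10th and 90th percentiles of the member means, -0.52 and 0.33, lay near those of all features, -0.49 and 0.45. Among members 13 (20.3%) lay beyond 0.5 in either direction, a share near the 18.4% of all features. All 4 mice lay above 0 in 5 members (7.81%) and below 0 in 6 (9.38%), where 7.54% and 7.07% of all features did. By these counts the family as a whole sat where the rest of the array did. The 35 Rab GTPases had a median of -0.05 with 2 lower and 0 higher at an unadjusted p under 0.05. The 28 regulators and effectors had a median of 0.04, also with 2 lower and 0 higher. Of all features 3.09% were called lower and 2.15% higher, and each of these group counts rests on 2 genes.

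Rabgap1l had log2 ratios of -2.80, -3.23, -3.56 and -3.37 in mice 1 to 4. The lowest mouse and the highest differed by less than any of them differed from 0, and no other member lay below -2 in every mouse. The mean was -3.24 ± 0.32 (SD, n = 4 mice), with a 95% interval from -3.69 to -2.79, so that Eps8KO liver held 10.6% of the WT pool's signal. The limma p was 1.8e-05, the second smallest of 15455 features, and the adjusted p was 0.119.

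The 8 single arrays all lay below 0. With Eps8KO RNA in Cy5, Rabgap1l read -2.21, -2.51, -3.05 and -2.59 in mice 1 to 4. With Eps8KO RNA in Cy3 it read -3.40, -3.96, -4.07 and -4.15. The Cy3 readings were lower than the Cy5 readings in every mouse, and the orientations did not overlap. Of 53 members with 8 values, Rabgap1l was the 1 member (1.89%) below 0 on all 8 arrays, where 0.571% of all such features were. In a limma fit on 8 arrays with a dye term and the mouse as a random block, its adjusted p was 7.12e-05, the smallest of 11727 features. In that fit 1 of 53 members (1.89%) passed an adjusted p under 0.05, against 0.298% of all features. At an unadjusted p under 0.05 it called 4 members (7.55%) lower, Rabgap1l, Tbc1d25, Rab18 and Rab5if, and 0 higher, against 3.83% and 2.8% of all features. The fit found a correlation of 0.00244 between the 2 arrays of a mouse, so it counted the 8 arrays almost as separate samples. That correlation was taken before the signs were turned, where a mouse's own difference enters its 2 arrays with opposite signs. It therefore does not measure how alike the 2 arrays of a mouse were in Eps8KO over WT. Rabgap1l was measured by a single probe, on which none of the 8 values was at an array's limit.

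The nearest relative on the arrays did not share the low ratio. Rabgap1, the paralog that also encodes a TBC domain protein, had log2 ratios of 0.05, 0.19, -0.11 and -0.11 in mice 1 to 4, on both sides of 0. Its mean was 0.0081 ± 0.14 (SD, n = 4 mice). Within each mouse Rabgap1l lay below Rabgap1, with log2 differences of -2.86, -3.43, -3.46 and -3.26, and the mean difference was -3.25 ± 0.28 (SD, n = 4 mice). In RefSeq the gene region of Rabgap1l overlaps Gpr52, Mir1927, Gm23528 and Gm37083, and on which strand the probe reads was not settled here.

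The 250 bases before the RefSeq start of the 3 members that were lower in all 4 mice at an unadjusted p under 0.05 are given here, to show the sequence at the starts of these genes. Tbc1d25, the remaining member called lower, was above 0 in mouse 2 and is left out. All are on the minus strand of assembly GRCm38.p6 and are written 5′ to 3′ in the direction of transcription: Rabgap1l at chr1:160792939-160793188, Rab20 at chr8:11478641-11478890 and Rab39b at chrX:75578232-75578481. Capitals mark 3 motifs searched on both strands, the E-box (CACGTG), the GC box (GGGCGG) and the TATA box (TATAAA), and in these windows no hit overlaps another.
Rabgap1l: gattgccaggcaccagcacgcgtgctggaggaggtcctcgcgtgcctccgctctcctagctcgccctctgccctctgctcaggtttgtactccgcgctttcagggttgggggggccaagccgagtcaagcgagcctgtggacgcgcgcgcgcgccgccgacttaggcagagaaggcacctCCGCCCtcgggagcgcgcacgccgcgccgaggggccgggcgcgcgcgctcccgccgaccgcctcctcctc
Rab20: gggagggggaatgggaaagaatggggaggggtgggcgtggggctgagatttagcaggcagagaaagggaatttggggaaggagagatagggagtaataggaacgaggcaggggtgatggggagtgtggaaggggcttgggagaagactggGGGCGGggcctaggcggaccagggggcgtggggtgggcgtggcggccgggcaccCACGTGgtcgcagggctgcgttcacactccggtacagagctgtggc
Rab39b: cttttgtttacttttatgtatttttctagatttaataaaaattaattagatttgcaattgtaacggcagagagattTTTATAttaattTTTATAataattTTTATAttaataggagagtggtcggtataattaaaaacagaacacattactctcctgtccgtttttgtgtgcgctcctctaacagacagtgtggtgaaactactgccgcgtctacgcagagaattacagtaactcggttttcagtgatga
The windows of Rabgap1l and Rab20 are both rich in G and C and hold 1 GC box each, whereas that of Rab39b is not and holds none. That of Rabgap1l is 73.2% G and C with 1 GC box, that of Rab20 is 65.2% G and C with 1 GC box and 1 E-box, and that of Rab39b is 31.6% G and C with 3 TATA box hits. Over 83 windows of the 62 members matched in RefSeq, the GC box occurred in 63.9%, the E-box in 8.43% and the TATA box in 4.82%. Over all 32851 windows the shares were 32.7%, 6.02% and 12.4%. The median G and C content was 60.8% in the windows of members and 52.4% in all windows. A hit is a match of letters and no measured site.

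Among GTPases of endosomes and lysosomes, 17 of 18 were measured in all 4 mice, with a median log2 ratio of -0.09, 10 below 0 and 7 above 0. Only Rab20 was past an unadjusted p of 0.05, where 3.09% of all features were called lower and 2.15% higher. Rab20, a GTPase of endosomes and phagosomes linked to the proton pump of these organelles, had log2 ratios of -1.59, -0.95, -0.90 and -1.04 in mice 1 to 4. All 4 mice lay below 0. The mean was -1.12 ± 0.32 (SD, n = 4 mice), or 2.18-fold lower in Eps8KO liver, with a limma p of 0.00172 and an adjusted p of 0.552. The agreement between mice hid a wide spread between arrays, because mouse 3 combined -3.59 on the array with its RNA in Cy5 and 1.79 on the other array. Mouse 2 had a single array with a value, so its dye effect did not cancel.

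Of the Rab5 GTPases, on which Usp6nl acts, Rab5b and Rab5c were measured, and neither passed an unadjusted p of 0.05. Rab5b, a GTPase of early endosome fusion, had log2 ratios of -0.28, 0.05, -0.46 and 0.32 in mice 1 to 4. Its relative Rab5c had log2 ratios of -0.19, 0.09, 0.23 and 0.45. Both sets of mice straddled 0. The means were -0.09 ± 0.35 for Rab5b and 0.15 ± 0.27 for Rab5c (SD, n = 4 mice), with 95% intervals from -0.56 to 0.38 and from -0.26 to 0.55. The adjusted limma p was 0.932 for Rab5b and 0.906 for Rab5c.

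Rab7, which carries cargo to late endosomes and lysosomes, had log2 ratios of 0.34, 0.11, 0.30 and 0.35 in mice 1 to 4, all above 0. Its mean of 0.27 ± 0.11 (SD, n = 4 mice) had a limma p of 0.0678 and an adjusted p of 0.906. Rab7 was the 1 member of 53 above 0 on all 8 arrays, where 0.375% of all such features were. The gene value averaged 4 probes whose own means ran from -0.17 to 0.88, so the probes themselves did not lie on 1 side of 0. Over its probes with a value on all 8 arrays the mean was 0.034, at an adjusted limma p of 0.955, and with the median of the probes 0.13. Rab21, a GTPase of early endosomes and integrin recycling, lay below 0 in all mice, with log2 ratios of -0.44, -0.54, -0.03 and -0.21. Its mean was -0.30 ± 0.23 (SD, n = 4 mice), and its 3 probes averaged -0.94, -0.39 and 0.15. Neither gene passed the unadjusted threshold, and in both the probes disagreed by more than the mice did.

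Other endosomal members had means set by few arrays. Rab11a, the GTPase of recycling endosomes, had log2 ratios of 0.53, 0.70, 3.66 and 0.14 in mice 1 to 4, all above 0, from 5 arrays. Its mean was 1.26 ± 1.62 (SD, n = 4 mice), and mouse 3 alone lay beyond 1. Rab29, at -3.41, -0.99, -0.61 and 0.35, had the lowest mean of the GTPases at -1.17, with a 95% interval from -2.94 to 0.60 and an adjusted limma p of 0.906. Rab31, a GTPase of transport between the trans-Golgi network and endosomes, ran from -1.84 in mouse 1 to 1.59 in mouse 3. Rab17, an epithelial GTPase of polarised transport, ran from -2.52 in mouse 3 to 0.59 in mouse 2. In these genes the mice lay on both sides of 0 and values were missing on 1 to 3 arrays, except that Rab11a stayed above 0.

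All 14 GTPases of the endoplasmic reticulum, the Golgi and constitutive secretion were measured in 4 mice, with a median log2 ratio of -0.05. Rab39b, a Golgi-associated GTPase best known from neurons, was the only 1 past an unadjusted p of 0.05, where 3.09% of all features were called lower. It had log2 ratios of -0.25, -0.69, -0.70 and -0.57 in mice 1 to 4, all below 0. The mean was -0.55 ± 0.21 (SD, n = 4 mice), or 1.47-fold lower, with a limma p of 0.0119 and an adjusted p of 0.848. The dye orientations did not agree. With Eps8KO RNA in Cy5 all 4 arrays lay below 0 (mean -1.24), and with Eps8KO RNA in Cy3 the 3 values were 1.08, -0.39 and 0.40 (mean 0.36).

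Rab18, a GTPase of the endoplasmic reticulum and of lipid droplets, had log2 ratios of -0.27, -0.06, -0.78 and -0.73 in mice 1 to 4, all below 0. Its mean of -0.46 ± 0.35 (SD, n = 4 mice) had a limma p of 0.0544 and an adjusted p of 0.906. The arrays with Eps8KO RNA in Cy3 carried this value, at -0.69, -0.29, -1.48 and -1.28, while those in Cy5 lay between -0.18 and 0.17. Rab8a, which serves transport from the trans-Golgi network to the plasma membrane, had the tightest values among members measured in 4 mice, with log2 ratios of 0.16, 0.08, 0.11 and 0.17. Its mean was 0.13 ± 0.042 (SD, n = 4 mice), with an adjusted limma p of 0.906. Here too the agreement of the mice exceeded that of the arrays, which ran from -0.25 to 0.55.

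Rab1b, a GTPase of transport from the endoplasmic reticulum to the Golgi, had the widest spread of the GTPases measured in 4 mice, with log2 ratios of -1.55, 1.19, 2.21 and -2.52 in mice 1 to 4. Its mean was -0.17 ± 2.23 (SD, n = 4 mice). Rab6a, a GTPase of retrograde Golgi transport, averaged -0.32 ± 0.54 (SD, n = 4 mice). Its arrays divided by dye instead of by mouse, with -0.72 to -3.15 when Eps8KO RNA was in Cy5 and 0.58 to 1.17 when it was in Cy3. Such a division was common in the family, as described below. Rab23, a GTPase of cilia, was on both sides of 0, from -0.89 in mouse 4 to 0.99 in mouse 3.

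Of the GTPases of regulated secretion, 3 of 5 were measured in all mice, and their median log2 ratio was 0.09. Rab3d, found on secretory granules, had log2 ratios of 0.10, 0.34, 0.06 and 0.0005 in mice 1 to 4. Its mean was 0.13 ± 0.15 (SD, n = 4 mice), with an adjusted limma p of 0.906. The means by dye lay on opposite sides of 0, at 0.85 over the Cy5 arrays and -0.60 over the Cy3 arrays. Rab5if had log2 ratios of -0.33, -0.14, -0.19 and -0.68 in mice 1 to 4, all below 0, with a mean of -0.34 ± 0.24 (SD, n = 4 mice) and an adjusted limma p of 0.906. It too changed sign with the dye, at 0.23 in Cy5 and -0.90 in Cy3.

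**Figure D2:**
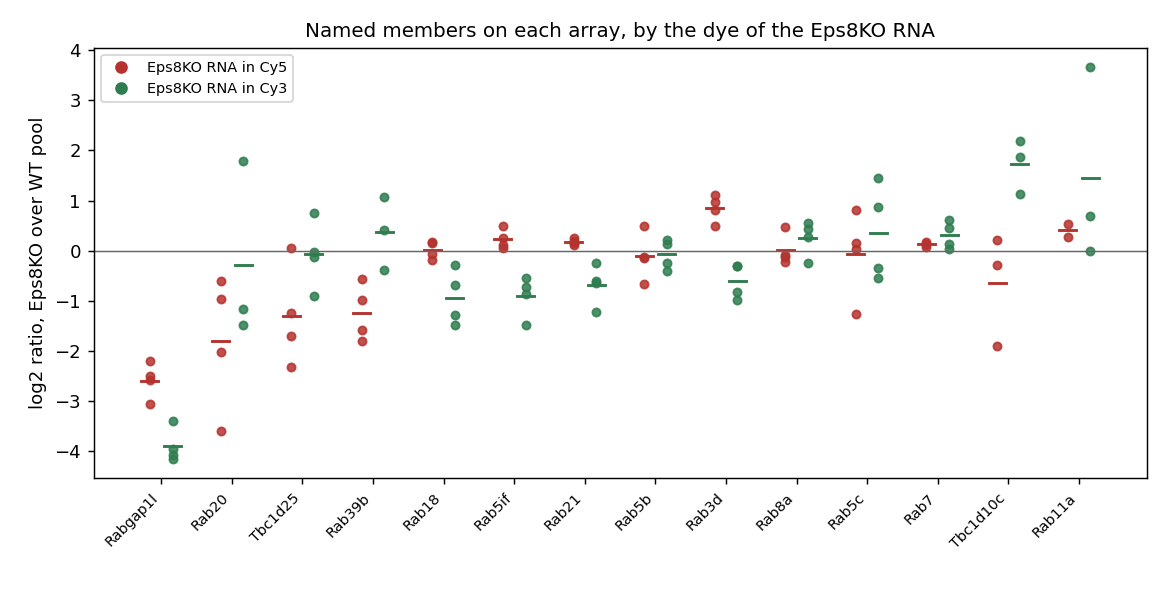
Log2 ratio of Eps8KO over the WT pool on every array (vertical axis) for 14 members described in the text, ordered by their mean. Red points are arrays with Eps8KO RNA in Cy5, green points arrays with it in Cy3, and short bars their means. Rabgap1l is the member with all 8 points far below 0, and in Rab5if, Rab21 and Rab3d the dyes lie on opposite sides of 0.

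Of the genes for prenylation and recycling, 3 were measured, with wide intervals. Gdi2, a GDP dissociation inhibitor, averaged 0.02 ± 0.23 (SD, n = 4 mice), with a 95% interval from -0.35 to 0.39. Rabggtb, the beta subunit of Rab geranylgeranyl transferase, averaged 0.35 ± 0.45 (interval -0.22 to 0.92), and Rabac1, a membrane protein that binds prenylated Rab proteins, averaged -0.20 ± 0.77 (interval -1.09 to 0.69; SD, n = 4 mice). None of these genes passed an unadjusted p of 0.05 in limma. Among the exchange factors of the family, Rin1 and Rin3, which load Rab5, averaged -0.26 ± 0.70 and -0.05 ± 0.64. Rab3ip (Rabin8), which loads Rab8, averaged 0.17 ± 0.39 (SD, n = 4 mice). All 3 had mice on both sides of 0.

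Of 20 GTPase-activating proteins, 18 were measured in all mice, with a median log2 ratio of 0.08, 12 above 0 and 6 below. Rabgap1l and Tbc1d25 were the 2 past an unadjusted p of 0.05, and both were lower, where 3.09% of all features were called lower. Tbc1d25, which acts on Rab33b at autophagosomes, had log2 ratios of -1.30, 0.016, -0.78 and -0.68 in mice 1 to 4, so that mouse 2 did not share the low value. Its mean was -0.69 ± 0.54 (SD, n = 4 mice), or 1.61-fold lower, with a limma p of 0.0429 and an adjusted p of 0.906. The arrays with Eps8KO RNA in Cy5 averaged -1.30 and those in Cy3 averaged -0.07. Leaving out mouse 1, 3 or 4 raised its p above 0.05, to between 0.11 and 0.125.

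Tbc1d10c (carabin), known from lymphocytes as an inhibitor of calcineurin and Ras, had log2 ratios of 1.87, 0.15, 0.21 and 0.42 in mice 1 to 4, all above 0. Its mean was 0.66 ± 0.81 (SD, n = 4 mice), with a limma p of 0.123 and an adjusted p of 0.906, from 6 arrays. Mouse 1 stood apart from the other 3, but it had a value on its Cy3 array alone. Mouse 3 had a value on its Cy5 array alone. The means by dye lay on opposite sides of 0, at -0.65 over 3 Cy5 arrays and 1.73 over 3 Cy3 arrays. On its Cy3 array mouse 2 read 2.195, above mouse 1. Tbc1d22b was measured in 3 mice, at -3.43, -15.7 and -1.84 in mice 1 to 3, all below 0. It had a value on 3 arrays alone, the value of mouse 2 was at its array's repeated limit, and it was not tested. Its relative Tbc1d22a had log2 ratios of 3.98, 0.46, -0.07 and 0.14 in mice 1 to 4. The array value of mouse 1 for 1 of the Tbc1d22a probes was at the limit of 15.8. The Tbc1d22a probe with a value on all 8 arrays averaged 0.0016.

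The other GTPase-activating proteins included Tbc1d1 (-0.55 ± 0.48), a regulator of glucose transporter traffic in muscle, and Tbc1d14 (-0.55 ± 1.03), which binds Rab11 and takes part in autophagy. Tbc1d5 (-0.22 ± 0.38) and Tbc1d15 (0.22 ± 0.70) both act on Rab7, Tbc1d20 (0.09 ± 0.22) acts on Rab1, and Tbc1d7 (0.20 ± 0.61) is a subunit of the tuberous sclerosis complex (SD, n = 4 mice). Rab3gap1, the catalytic subunit of the Rab3 GTPase-activating complex, averaged 0.13 ± 0.72. Each of these 7 had mice on both sides of 0. Among 4 effectors the median was -0.03, and Rabepk, an effector of Rab9, had log2 ratios of 0.43, 5.79, -0.17 and 0.30 in mice 1 to 4. The value of mouse 2 gave Rabepk the highest mean of members measured in 4 mice, 1.59 ± 2.81 (SD, n = 4 mice), and limma gave it an adjusted p of 0.906.

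Members often read differently in the 2 dyes, as did features across the arrays. The median ratio of the members was -0.21 over arrays with Eps8KO RNA in Cy5 and 0.23 over arrays with it in Cy3, close to the -0.19 and 0.24 of all features. Averaging both orientations of a mouse cancels such a shift only where both arrays have a value. The median size of the difference between a member's orientation means was 0.990, where it was 0.736 for all features, and 31 of 64 members (48.4%) differed by more than 1, against 38.8% of all features. Only 15 members (23.4%) had the same sign in both orientations, where 28.8% of all features did. Of these, 6 were below 0 in both and 9 above. Another 35 members (54.7%) were below 0 in Cy5 and above 0 in Cy3, against 53% of all features, and 14 (21.9%) the other way round, against 18.2%.

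When each orientation was fitted alone, limma at an unadjusted p under 0.05 called 2 members higher and 11 lower in Cy5 (all features, 4.66% and 12.6%), and 6 higher and 7 lower in Cy3 (14.7% and 6.94%). Rabgap1l was the only member called in the same direction in both. Rab6a, Rab35, Rab11fip4 and Tbc1d5 were called lower in Cy5 and higher in Cy3, and Rab3d was called higher in Cy5 and lower in Cy3. Over 64 members the 2 orientation means correlated with r = -0.13 across genes, and without Rabgap1l with r = -0.45. These points share 4 mice and the WT pool, and genes are not independent replicates.

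**Figure D3:**
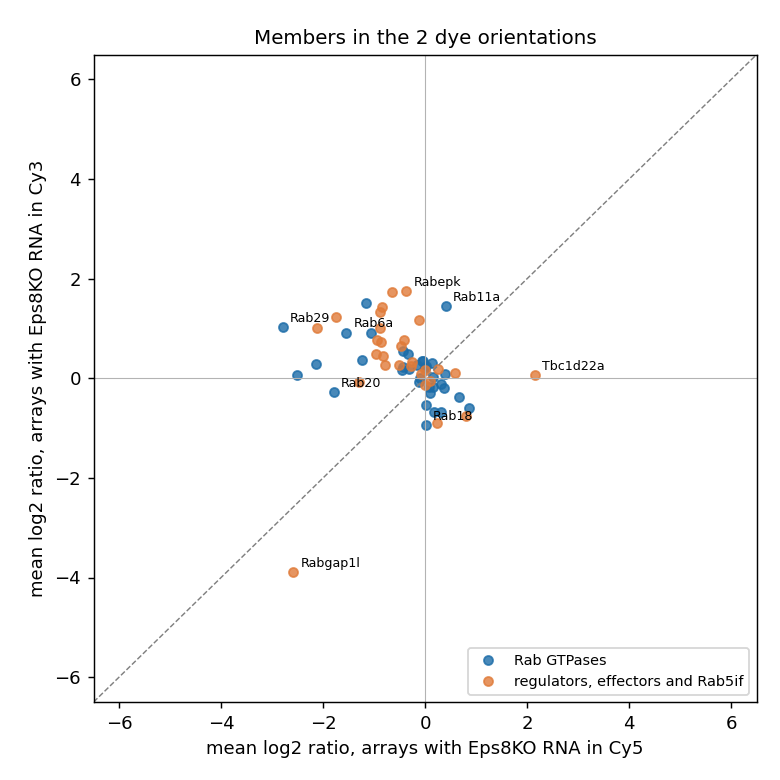
Mean log2 ratio of each of 64 members on arrays where Cy5 labelled the Eps8KO RNA (horizontal axis) and where Cy3 did (vertical axis). Blue points are Rab GTPases, orange points the other members, and the dashed line marks equal values. Rabgap1l lies alone at -2.59 and -3.89, and 35 members lie in the upper left quadrant, below 0 in Cy5 and above 0 in Cy3.

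The spread between mice went with missing values. The median SD between mice was 0.402 for the members and 0.434 for all features. It was 0.359 for 53 members with a value on all 8 arrays and 1.46 for 11 members (17.2%, against 24.1% of all features) that missed at least 1 array. Rab20 and Rab39b belong to these 11 with SDs of 0.32 and 0.21. Among 26 members with more than 1 probe, the probe means differed by a median of 0.332, lay on both sides of 0 in 16, and differed by more than 1 in 5. Two-sided exact permutation of signs over 4 mice cannot give a p below 0.125, so single members rest on the limma fit.

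**Figure D4:**
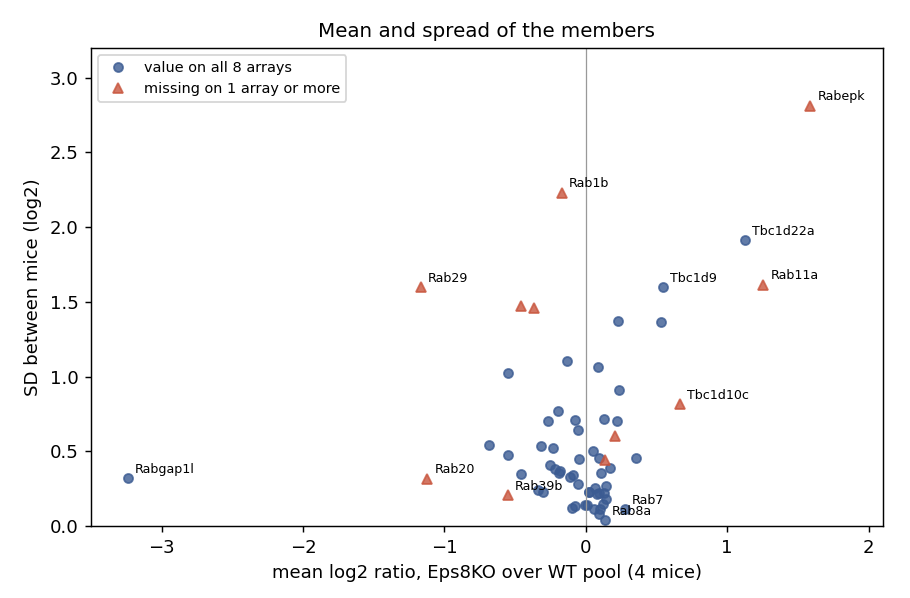
Mean log2 ratio of Eps8KO over the WT pool in 4 mice (horizontal axis) and SD between the mice (vertical axis) for 64 members. Circles have a value on all 8 arrays and triangles miss 1 array or more. Rabgap1l combines the lowest mean, -3.24, with an SD of 0.32, while of the other members beyond 1 in either direction only Rab20 has an SD below 1.

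Other genes of the Rab cycle that the rule did not take had medians near 0. Of 25 measured exchange factors and escort proteins, limma at an unadjusted p under 0.05 called 1 higher and 0 lower, and the median was 0.02. That gene was Dennd1c, an exchange factor with a DENN domain (0.80 ± 0.67, SD, n = 4 mice). Of 34 effectors and tethers 2 were called higher and 0 lower, and the median was -0.04. These were Mical1, an actin-oxidising enzyme bound by Rab proteins (0.66 ± 0.36), and Rph3a, an effector of Rab3 (0.39 ± 0.20; SD, n = 4 mice). Of 4 other TBC domain proteins none was called. Over all features the shares called were 2.15% higher and 3.09% lower. All 3 named genes had an adjusted p of 0.893 or 0.906.

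Among 8 lists of cell type markers of the liver, median log2 ratios ran from -0.28 for endothelial cells (6 genes, 0 called) to 0.19 for hepatocytes (9 genes, 8 above 0). At an unadjusted p under 0.05, limma called 2 hepatocyte genes higher, Ass1 (0.46 ± 0.17) and Apoa1 (0.34 ± 0.14; SD, n = 4 mice). Of all features 2.15% were called higher and 3.09% lower. The adjusted p was 0.893 for Ass1 and 0.906 for Apoa1. Both changed sign with the dye, Ass1 at 1.17 in Cy5 and -0.25 in Cy3, Apoa1 at 1.32 and -0.64. The paper lists Ass1 among its genes higher in Eps8KO liver and also found it higher by quantitative PCR. Krt7 was the 1 bile duct marker called lower (-1.51 ± 0.40, from 4 arrays; SD, n = 4 mice). The 5 bile duct genes had a median of -0.05, with 2 above 0 and 3 below. Whether these differences take part in the ratios of the members was not tested.

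The deposited values have a form that bears on weak members. On each array 1 value recurred 136 to 185 times, and other frequent values differed from it by the log2 of a ratio of small whole numbers. Values that matched a ratio of whole numbers up to 5, within 0.001 on the log2 scale, made up 3.95% of 735 member values and 5.06% of all values. None of the 8 values of Rabgap1l was of this kind. Rab39b and Tbc1d25 had 1 such value each. Without it Rab39b moved to -0.22, with a limma p of 0.581 and an adjusted p of 0.929. Tbc1d25 moved further from 0, to -1.07, with a limma p of 0.0563 and an adjusted p of 0.912. Without the shift of 32 between row and probe numbers, the row carrying the name Rabgap1l read 0.10, so the identity of the low probe rests on that shift.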

How the data were processed

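The authors deposited log2 ratios of Cy5 over Cy3 for 8 cDNA arrays. Their methods name MIDAS total intensity normalisation, a check against background and a flip dye check, but not whether the deposited values follow them. Array means ran from -0.39 to -0.18, and 17968 to 18802 of 20355 spots per array had a value. Signal over background is unknown, so precision is limited by the number of arrays. Every one of the 8 value columns was used (0 left out).

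Direction was taken from the labelled dyes. Signs were turned where Cy3 labelled Eps8KO RNA. Both arrays of each mouse were averaged, then all probes sharing a gene. Features present in 4 mice were fitted against 0 by limma 3.58.1 (lmFit, eBayes; R 4.3.3). Replicates are separate mice. The 12398 platform probes with 1 symbol (0 had several) were matched to RefSeq GRCm38.p6 by gene ID, and 12367 rows were named after the shift of 32. The other 7988 spots were tested unnamed. Tables and plots used Python 3.11.15, pandas 2.3.3, NumPy 2.4.6, Matplotlib 3.10.9 and SciPy 1.17.1.

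Values in every mouse are given for Rabgap1l, Rab5b and Rab5c, for members with an unadjusted p under 0.05, and for up to 8 members on each side with 1 direction in all mice. Further members were named after their values were seen, for wide spread or for their role. The members and lists were chosen with earlier results of these data known. Alternatives changed the centring, the missing-value rule, the dye handling, the probes, the variance model, the naming and the mice.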

Additional observations from a re-analysis of the deposited data

Results flagged for a closer look

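By Dixon's test on the log2 ratios of 4 mice, a single mouse stood apart in 2 of 14 members tested. The 14 were those that the rule for values in every mouse had picked. Members named after their values were seen, among them Rabepk and Tbc1d22a, were not put to this test. Chance alone marks about 1 in 20 groups. In Tbc1d10c mouse 1 read 1.87, where the other mice read 0.15 to 0.42, and its gap to the nearest mouse was 0.842 of the whole range. In Rab11a mouse 3 read 3.66, where the other mice read 0.14 to 0.70, a gap of 0.839 of the range. Both outlying values came from a single array with Eps8KO RNA in Cy3, the other array of that mouse having no value. In Tbc1d10c the Cy3 array of mouse 2 read higher still, at 2.195.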

How the results depend on the processing

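Rabgap1l stayed negative under every alternative but that of the names. It read -3.24 with an adjusted limma p of 0.0137 over spots with values on all 8 arrays and 0.0154 where a mouse needed both arrays. With a dye term and a random block for the mouse the adjusted p was 7.12e-05, but that fit counted the arrays almost as separate samples. With Eps8KO RNA in Cy3 alone Rabgap1l read -3.89 (adjusted p 0.0242), and in Cy5 alone -2.59 (0.0985). Its adjusted p was 0.459 without moderation of the variance, and 0.698 to 0.909 without each mouse in turn, when it read -3.39 to -3.13. Elsewhere with the names kept, the adjusted p ran from 0.0787 to 0.156 (limma). It had no value where arrays of a mouse differing by more than 1 were left out, since its arrays did.

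The count of lower members was 4 of 64, where 3.09% of all features were called lower. It was 11 of 57 in Cy5 alone (all features, 12.6%) and 7 of 56 in Cy3 alone (6.94%). With differing arrays left out it was 1 of 26, Rab21 (2.47%), and without the shift of names 2 of 65 (2.92%). Without ratios of small whole numbers, an alternative chosen after seeing the data, it was 2 of 64 (3.03%). Without each mouse it was 3 to 5 of 64 to 66 members (2.42% to 2.96%). The count of higher members was 0 of 64, where 2.15% of all features were called higher. It was 2 of 57 in Cy5 (all features, 4.66%) and 6 of 56 in Cy3 (14.7%). Without moderation of the variance it was 2 of 64, Rab7 and Rab8a (2.56%), and without the shift 1 of 65 (2.2%). The median of the members, 0.01, was -0.11 in Cy5 and 0.20 in Cy3, and -0.041 to 0.035 without each mouse.

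The median of the Rab GTPases, -0.05, had no stable sign: 0.0074 with all 8 arrays, 0.031 with both arrays per mouse, 0.035 with differing arrays left out, 0.0076 in Cy5, 0.0658 in Cy3, 0.0525 with the dye term, 0.013 without the shift, and -0.065 to 0.029 without each mouse. That of the regulators and effectors, 0.04, was -0.49 in Cy5, 0.30 in Cy3 and -0.032 to 0.051 without each mouse.

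Directions turned without the shift of names for Rabgap1l (0.10), Rab18 (0.30), Rab5if (0.026), Rab5b (0.43), Rab5c (-0.30) and Rab11a (-0.024). They turned in Cy5 alone for Rab18 (0.0145), Rab5if (0.23), Rab21 (0.18) and Rab5c (-0.0635), in Cy3 alone for Rab3d (-0.60), with 1 probe per gene for Rab7 (-0.10), and without mouse 3 for Rab5b (0.029, and -0.23 without mouse 4). Rab20, Rab39b, Tbc1d25, Rab8a and Tbc1d10c kept their direction wherever they were fitted. Rab20 and Rab39b were not fitted over spots with 8 values, in Cy3 alone or in the dye term fit. Tbc1d10c was fitted in neither dye alone. The arrays they had changed sign with the dye for Rab39b (-1.24 in Cy5, 0.36 in Cy3) and Tbc1d10c (-0.65 in Cy5, 1.73 in Cy3). The causes were not tested, apart from the names, where another row is read. No paired analysis was possible because each array sets a mouse against the same WT pool, so no WT sample shares a mouse number.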

Other observations

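Among other small GTPases, 9 ARF and ARL genes had a median log2 ratio of -0.08 and 17 Ras genes a median of -0.04. At an unadjusted p under 0.05, limma called 1 of them lower, where 3.09% of all features were called lower and 2.15% higher. That gene was Sar1a, the GTPase that starts the budding of vesicles from the endoplasmic reticulum. It had log2 ratios of -0.60, -0.13, -0.68 and -0.42 in mice 1 to 4, all below 0, with a mean of -0.46 ± 0.24 (SD, n = 4 mice) and an adjusted p of 0.906. The means by dye had the same sign, at -0.22 in Cy5 and -0.69 in Cy3.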
